A study of Mus musculus with 47 samples.

Results

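The genes described here are the mouse protease inhibitors of the Kazal, whey acidic protein (WAP) and cystatin families, followed by RNA-seq in liver and in cauda epididymal spermatozoa. They were chosen by gene symbol alone: every symbol of the count files that starts with Spink, Wfdc or Cst followed by a number, plus Cstl1. The rule found 39 of the 23416 genes, of which 12 were Spink genes, 17 were Wfdc genes and 10 were cystatins.

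Spink genes encode secreted inhibitors of serine proteases with Kazal domains. Wfdc genes encode small secreted proteins with the 4-disulfide WAP core, many of which inhibit serine proteases. Many cystatins, though not all, inhibit cysteine proteases such as cathepsins. In the male reproductive tract, members of all these families are secreted by the epididymal epithelium or made by germ cells, and they are known as part of the fluid and the acrosome that surround and equip maturing sperm. Spermatozoa are transcriptionally silent, so their RNA is a remnant of spermatogenesis together with what was gained during epididymal transit or from accompanying cells.

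The fathers of KO-F1 males were Scml2-KO (-/y) and those of Ctrl-F1 males their wild-type littermates, and both groups were produced through intracytoplasmic sperm injection (ICSI) of testicular sperm. SCML2 is a germline Polycomb protein. The F1 males carry the strain label BDF2. KO-F2 males, labelled BDF3, were bred by natural mating of KO-F1 males with C57BL/6 females. No Ctrl-F2 group was analysed here, so strain, way of conception (natural mating or ICSI) and generation cannot be told apart. Males of all groups were 8 to 12 weeks old, and the F1 and F2 animals compared are described as wild type, so no group compared here lacks Scml2 by design. The comparisons ask whether deletion of Scml2 in the father, or the grandfather, altered the RNA of the offspring, with 2 libraries each of Ctrl-F1 liver, KO-F1 liver, Ctrl-F1 spermatozoa, KO-F1 spermatozoa and KO-F2 spermatozoa. A stranded mRNA kit was used for liver, and an amplification kit that does not mark strand for swim-up motile sperm. The labels name a sequencing run for the liver and KO-F2 sperm libraries but not for the F1 sperm libraries, so run and generation cannot be told apart either.

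Liver libraries held between 11339729 and 14278900 counts and sperm libraries between 1503733 and 11462105, the 2 deepest of which were those of KO-F2. The labels were checked against marker lists. In liver, all 20 hepatocyte markers were above 3 counts in every library, and in spermatozoa the late spermatogenesis list (39 of 40 genes in the files, among them Prm1 and Prm2) summed to between 50001 and 172987 counts scaled to library size (CPM), with 38 or 39 genes above 3 counts. Markers of epididymal principal cells (28 of 30 in the files) were also present in every sperm library, at 3616 to 44384 CPM, whereas Lcn5 of that list had 0 counts in 3 of the 6. The ribosomal RNA gene Rn45s took 3.52% to 28.7% of the counts of a sperm library. Fewer cells of a type and less RNA per cell cannot be told apart in such samples.

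All 39 genes were placed on the GRCm38.p6 assembly by RefSeq, 38 by symbol and Spink3 by an older symbol. They lie mostly in clusters. The WAP cluster, chr2:164176325-164745994, holds 14 Wfdc genes within 569670 bp. The cystatin cluster, chr2:148750361-149410278, holds 8 cystatins within 659918 bp. Of the other genes, 9 are Spink genes on 1 chromosome and 8 lie singly or as the Wfdc17 and Wfdc18 pair on chromosome 11. Within the WAP cluster annotated starts of Wfdc8 and Wfdc6b face each other with 73 bases between them, and annotated starts of Wfdc9 and Wfdc10 with 1079.

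Some of these genes share sequence, which bears on the counts. Windows of 75 bases, the read length, were compared between the annotated transcripts. Wfdc6a and Wfdc6b, inverted copies of each other, shared 359 windows, which were 29.4% of the windows of Wfdc6a and 46.8% of those of Wfdc6b. Wfdc9 and Wfdc10, whose gene models overlap on opposite strands, shared 209 windows, which were 27.3% of the windows of Wfdc9 and 54.3% of those of Wfdc10. Their separate counts are therefore uncertain. Wfdc6b shared 42 windows with Wfdc8, Spink10 and Spink13 shared 23, and no other pair of the 39 genes shared any. Spink8 overlaps a predicted gene on the other strand by 258 exonic bases, which the sperm kit cannot separate.

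The upstream sequences of 3 genes are shown because the results turn on them: Wfdc15b and Cstl1, which had the lowest adjusted p of the WAP and the cystatin cluster between KO-F1 and Ctrl-F1 spermatozoa without being called by edgeR, and Wfdc17, the only member that edgeR called. Each is the 250 bases before the RefSeq transcript start, read 5′ to 3′ on the strand of the gene (GRCm38.p6): Wfdc15b at chr2:164221664-164221913 on the minus strand, Cstl1 at chr2:148750111-148750360 on the plus strand and Wfdc17 at chr11:83703806-83704055 on the plus strand. Capitals mark the letters AGAACA on either strand, the half-site of the androgen receptor, the steroid receptor that maintains the epididymal epithelium.
Wfdc15b: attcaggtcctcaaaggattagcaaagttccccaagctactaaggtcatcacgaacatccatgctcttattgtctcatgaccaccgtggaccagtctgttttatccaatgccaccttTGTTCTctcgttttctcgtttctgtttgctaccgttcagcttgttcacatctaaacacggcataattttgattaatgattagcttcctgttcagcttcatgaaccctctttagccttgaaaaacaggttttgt
Cstl1: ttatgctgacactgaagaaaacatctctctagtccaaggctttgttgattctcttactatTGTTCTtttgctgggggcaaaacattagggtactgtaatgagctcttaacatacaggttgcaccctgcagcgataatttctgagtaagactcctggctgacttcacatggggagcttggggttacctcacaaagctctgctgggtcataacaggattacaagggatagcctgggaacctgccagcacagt
Wfdc17: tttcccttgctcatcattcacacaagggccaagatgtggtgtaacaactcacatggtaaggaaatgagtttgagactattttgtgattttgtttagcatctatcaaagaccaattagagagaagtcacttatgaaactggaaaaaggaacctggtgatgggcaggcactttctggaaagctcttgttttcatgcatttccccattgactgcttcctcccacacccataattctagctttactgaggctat

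The half-site starts 133 bases before the start of Wfdc15b and 190 bases before that of Cstl1, and it is not in the window of Wfdc17. In all, 28 windows of 23 members were in the RefSeq table, and AGAACA was found on either strand in 4 of them, those of Cst3, Cstl1, Wfdc11 and Wfdc15b, against 16.1% of all 32851 windows. TATAAA, the core of a TATA box, was found in 3 of the 28 windows (Cst13, Wfdc18 and Wfdc8) against 12.4% of all windows. TGACGT, the half-site of the cAMP response element that spermatid genes often carry, was found in 0 of the 28 against 6.47% of all. The letters searched do not overlap each other, and a match is a description of the sequence only.

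Most of the family was detected in spermatozoa and little of it in liver. Of the 39 genes, 19 were above 3 counts in all 6 sperm libraries, 14 in 1 to 5 of them, Spink6 and Wfdc12 only in liver, and Cst10, Cst6, Spink3 and Spink7 in no library. Cst10 and Spink7 had 0 counts throughout. Between 22 and 32 members were above 3 counts in a sperm library and between 4 and 6 in a liver library, and 24 members had 0 counts in all 4 liver libraries. A count of 3, the largest that a count of 0 allows here, corresponds to 0.262 to 2.00 CPM in sperm libraries and to 0.210 to 0.265 CPM in liver libraries, so the genes at 0 were not detectable at this depth. Intervals and limits of this kind cover counting error only, since reads without molecular identifiers are not independent molecules.

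Together the 39 genes took 0.728% of the counts of Ctrl-F1 sperm library 1 (95% Wilson interval 0.717% to 0.738%) and 0.368% of library 2 (0.358% to 0.377%). In KO-F1 spermatozoa their share was 1.78% (1.77% to 1.80%) and 0.901% (0.888% to 0.914%). In KO-F2 spermatozoa it was 0.395% (0.391% to 0.398%) and 0.250% (0.247% to 0.254%). The KO-F1 libraries thus had the highest shares and KO-F2 library 2 the lowest, and the groups KO-F1 and Ctrl-F1 did not overlap. After TMM normalization, which scales libraries so that most genes agree, the summed level was 6159.8 CPM ± 2114 (SD, n = 2) in Ctrl-F1, then 11436 ± 4774 in KO-F1 and 3289 ± 1032 in KO-F2 spermatozoa, against 140.0 ± 8.14 in Ctrl-F1 liver and 160.1 ± 5.21 in KO-F1 liver. With 2 libraries a group, the smallest two-sided p of an exact permutation test is 0.333, and the sums carry no test.

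**Figure D1:**
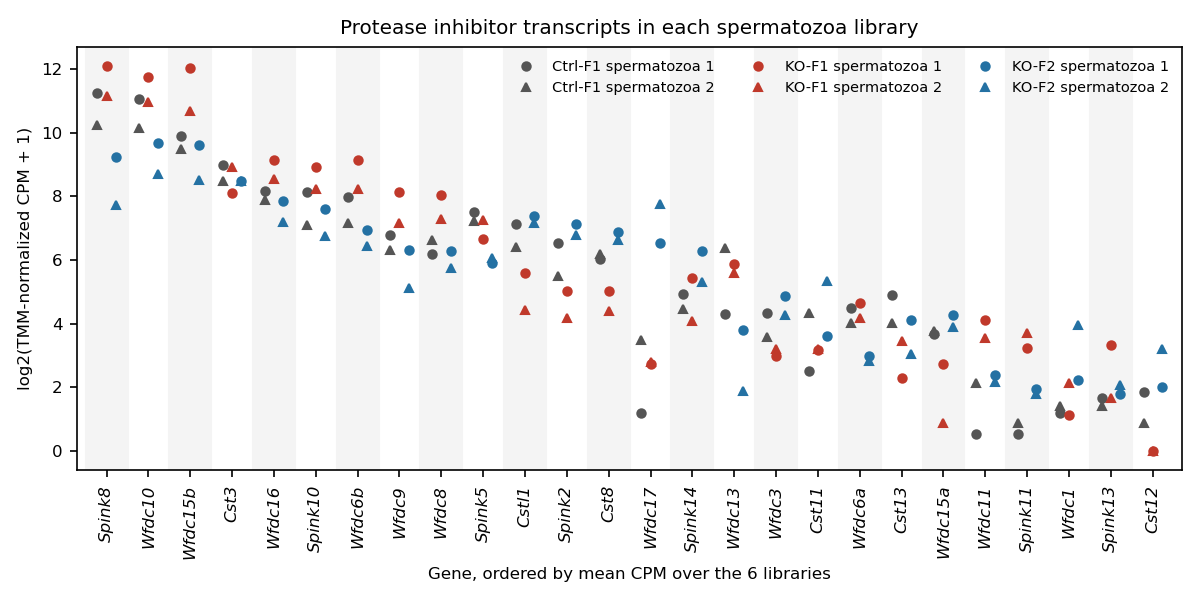
log2(TMM-normalized CPM + 1) of the 26 members with the highest mean, 1 column per gene, in each of the 6 sperm libraries; circles are replicate 1, triangles replicate 2, and colours are the groups. Spink8, Wfdc10 and Wfdc15b lead, with KO-F1 highest and KO-F2 lowest on average, while Cstl1, Spink2 and Cst8 are lowest in KO-F1 and Wfdc17 is high in KO-F2 alone.

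Levels of different genes were compared per kilobase of annotated exon, as CPM per kb. In Ctrl-F1 spermatozoa the order was led by Wfdc10 at 4678 and 2496 CPM per kb in the 2 libraries, Spink8 at 3557 and 1773, and Wfdc15b at 1670.3 and 1249. The libraries of Wfdc10 and Spink8 overlapped, and those of Wfdc15b were below both genes and above Cst3. Cst3 followed at 635 and 446, and Wfdc6b, Wfdc16, Spink10, Wfdc9 and Cstl1 lay between 121 and 313. In Ctrl-F1 liver Cst3 led at 147 and 150.01 CPM per kb, then came Wfdc17 at 21.7 and 39.8, Wfdc2 at 4.69 and 4.15 and Wfdc1 at 2.74 and 3.56. Cst3, which encodes cystatin C, a secreted inhibitor made by most tissues, was thus the only one of the 4 leading members of spermatozoa above 1 CPM per kb in liver. Tissue and library kit differ together, so no test was made between them. Wfdc2, which encodes the epithelial secretory protein HE4, had at most 4 counts in any sperm library.

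KO-F1 was compared with Ctrl-F1 spermatozoa to ask what a father without SCML2 left in the sperm RNA of his sons. Of the 10785 genes tested by edgeR's quasi-likelihood test, 0 (0%) reached a fold of 2 at an adjusted p under 0.01, and of the 23 members tested 0 did. At an unadjusted p under 0.05 there were 7 of the 23 members, against 19.5% of all genes tested. Among the 7 was Spink11, which passed the filter only through its KO-F1 counts. With DESeq2 at the same thresholds 1 member was called of the 16 it tested, Wfdc15b, against 7.8% of the genes it tested. Both KO-F1 libraries were above both Ctrl-F1 libraries for 8 of the 23 members, against 28.3% of all genes, and below them for 6, against 25.8%. Among the 6 was Wfdc15a, which passed the filter only through its Ctrl-F1 counts. With 2 libraries a group, 0 calls do not show that the genes did not differ. The median log2 fold change of the members tested was 0.13, and that of all genes was 0.02. These counts lay near those of all genes, and the members differed among themselves.

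Of the 12 members with the highest mean level in spermatozoa, 8 had a log2 fold change above 0 between KO-F1 and Ctrl-F1, and Cst3, Spink5, Cstl1 and Spink2 had one below 0 (above 0 for Cst3, Spink5 and Spink2 when scaled to the late spermatogenesis list, and for Cst3 with library totals), none of them called by edgeR. Wfdc15b, a WAP protein of unknown substrate, had 959 and 717 TMM-normalized CPM in Ctrl-F1, against 4169 and 1635.4 in KO-F1, and 783 and 363 in KO-F2 spermatozoa. Both KO-F1 libraries were above all 4 others. Its log2 fold change between KO-F1 and Ctrl-F1 was 1.75 ± 0.53 (SE, n = 2 per group) with an adjusted p of 0.153 by edgeR, and 1.80 with an adjusted p of 8.6e-04 by DESeq2.

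Spink8, a Kazal inhibitor of the epididymis, had 2419 and 1206 CPM in Ctrl-F1, then 4364 and 2299.8 in KO-F1, and 601 and 212 in KO-F2. Ctrl-F1 and KO-F1 overlapped, and both KO-F2 libraries were below all the others. Wfdc10 had 2147 and 1146 CPM in Ctrl-F1, against 3449.7 and 2019.7 in KO-F1, and 818 and 413 in KO-F2, with the same order. The log2 fold change between KO-F1 and Ctrl-F1 was 0.84 ± 0.52 for Spink8 (adjusted p = 0.431) and 0.69 ± 0.49 for Wfdc10 (adjusted p = 0.490), neither past the threshold.

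In the other 5 of these 8 members the mean was again highest in KO-F1 and lowest in KO-F2. Wfdc16 had 287 and 237 CPM in Ctrl-F1, then 564 and 375 in KO-F1, and 229 and 145 in KO-F2, with no overlap between the 3 groups. Wfdc6b had 252 and 143 CPM in Ctrl-F1, against 562 and 301 in KO-F1, and 122 and 85.9 in KO-F2, again with no overlap. Spink10, a Kazal gene, had 279.6 and 138 CPM in Ctrl-F1, then 480.3 and 298 in KO-F1, and 193 and 107 in KO-F2, where Ctrl-F1 and KO-F2 overlapped. Their KO-F1 libraries were above the Ctrl-F1 libraries in each case.

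Wfdc9 had 109.7 and 78.5 CPM in Ctrl-F1, against 281 and 142 in KO-F1, and 78.4 and 33.5 in KO-F2. Wfdc8 had 71.9 and 98.7 CPM in Ctrl-F1, then 262 and 154 in KO-F1, and 76.2 and 52.9 in KO-F2. Both KO-F1 libraries were again the highest, while Ctrl-F1 and KO-F2 overlapped for Wfdc8 and nearly met for Wfdc9. Over these 5 genes the log2 fold change between KO-F1 and Ctrl-F1 ranged from 0.81 ± 0.40 (Wfdc16) to 1.26 ± 0.44 (Wfdc8), with adjusted p of 0.181 to 0.382 by edgeR. The low-count Spink11 had 1 count in each Ctrl-F1 library against 28 in each KO-F1 library, and Wfdc11 had 1 and 4 against 54 and 25. Their adjusted p by edgeR was 0.197 and 0.279. Both passed the filter only through their KO-F1 counts, so their direction was fixed in advance. They count among the members with both KO-F1 libraries above both Ctrl-F1 libraries.

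Spink2 and Cstl1 had the lowest log2 fold changes of the 12 between KO-F1 and Ctrl-F1, that of Spink2 above 0 with the late spermatogenesis scaling. Spink2, an inhibitor of the acrosome that spermatids need, had 92.3 and 44.7 CPM in Ctrl-F1, against 31.4 and 17.2 in KO-F1, and 139 and 109.8 in KO-F2. Cstl1, a cystatin-like gene of the testis, had 140.0 and 84.4 CPM in Ctrl-F1, then 47.0 and 20.6 in KO-F1, and 165 and 144 in KO-F2. Both genes were lowest in the 2 KO-F1 libraries and highest in the 2 KO-F2 libraries, with no overlap.

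The log2 fold change between KO-F1 and Ctrl-F1 was -1.54 ± 0.59 for Spink2 (adjusted p = 0.211) and -1.77 ± 0.55 for Cstl1 (adjusted p = 0.157). Cst8, the reproductive cystatin CRES, was chosen after its values were seen; it had 64.6 and 72.6 CPM in Ctrl-F1, against 31.7 and 20.2 in KO-F1, and 116 and 97.7 in KO-F2, and its log2 fold change between KO-F1 and Ctrl-F1 was -1.42 ± 0.50 (adjusted p = 0.185). Cst13, Wfdc15a and Wfdc3 were also lower in both KO-F1 libraries, at log2 fold changes of -1.70, -1.90 and -1.03. The direction of Wfdc15a was largely fixed in advance, since it passed the filter only through Ctrl-F1. None of the 6 was called by edgeR or DESeq2.

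Spink5 and Cst3 did not separate the F1 groups. Spink5, which encodes the multi-domain inhibitor LEKTI of stratified epithelia, had 180.3 and 149 CPM in Ctrl-F1, then 100.01 and 151 in KO-F1, and 58.5 and 66.2 in KO-F2. Cst3 had 506 and 355 CPM in Ctrl-F1, against 277 and 485 in KO-F1, and 354 and 353 in KO-F2. KO-F2 was the lowest group for Spink5, and for Cst3 the KO-F2 libraries lay within the range of KO-F1 and close to the lower Ctrl-F1 library.

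Marker lists were set beside these values. The epididymal principal cell list summed to 10085 to 29382 CPM of the library total in Ctrl-F1, then 27694 to 44384 in KO-F1 and 3616 to 7067 in KO-F2 spermatozoa, and the late spermatogenesis list to 131152 to 149138, 50001 to 64829 and 171363 to 172987. With Cd52 included, the order of the group means in the first list was that of Spink8 and the abundant Wfdc genes. In Ctrl-F1, Cd52 held 16305 of 71308 and 3589 of 15165 counts of this list. In KO-F1 it held 85303 of 123307 and 25304 of 57750. Crisp1, also of this list, had 25633 and 24072 counts in KO-F1, between the 44302 and 8193 of Ctrl-F1, so it did not share the higher sum. The order of the groups in the second list was that of Spink2, Cstl1 and Cst8. The part of these cell types in the differences was not tested. When the late spermatogenesis list set the scale, this shifted the median log2 fold change of all genes by 1.74 between KO-F1 and Ctrl-F1 and turned the sign of 7 members, Cst11, Cst13, Cst3, Cst8, Spink2, Spink5 and Wfdc3; it called 4 members higher, Wfdc15b, Wfdc16, Wfdc8 and Wfdc9. Scaling to library totals shifted that median by 0.44 and turned the sign of Cst3 only.

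**Figure D2:**
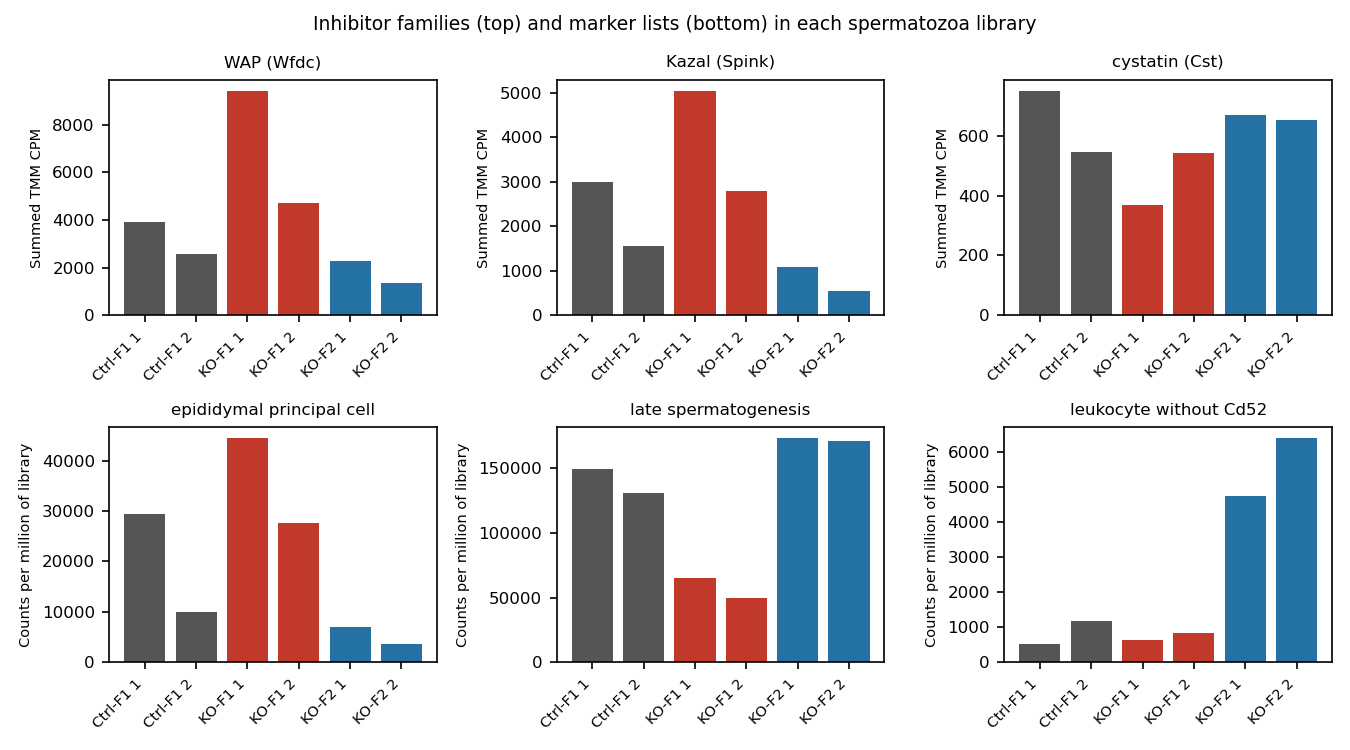
Bars give, for each of the 6 sperm libraries, the summed TMM-normalized CPM of the 3 inhibitor families (top) and the summed CPM of the library total of 3 marker lists (bottom). The WAP and Kazal sums and the principal cell list, which includes Cd52, are highest in KO-F1 library 1 and lowest in KO-F2 library 2. The late spermatogenesis list is lowest in KO-F1, and the leukocyte list without Cd52 is highest in KO-F2.

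KO-F2 was compared with Ctrl-F1 spermatozoa to ask what remained a generation later, and this comparison shares the Ctrl-F1 libraries with the one above. Of the 13149 genes tested by edgeR, 0 (0%) were called, and of the 26 members tested 0 were. At an unadjusted p under 0.05 there were 8 of the 26, against 14.9% of all genes, and DESeq2 called Spink8 and Wfdc17, 2 of the 25 it tested, against 2.14% of the genes it tested. Both KO-F2 libraries were above both Ctrl-F1 libraries for 11 members, against 28.9% of all genes, and below them for 7, against 19.2%. Among the 11, Cst12, Spink11, Spink13, Wfdc1, Wfdc11 and Wfdc17 passed the filter only through their KO-F2 counts. Their direction was thus largely fixed in advance. Wfdc1 and Wfdc17 also count among the 8. The median log2 fold change was 0.07 for the members and 0.07 for all genes. Spink8 differed by -2.15 ± 0.62 on the log2 scale (adjusted p = 0.225 by edgeR and 0.00573 by DESeq2), Spink5 by -1.39 ± 0.31 (adjusted p = 0.186 by edgeR) and Wfdc10 by -1.41 ± 0.50 (adjusted p = 0.272 by edgeR). Wfdc15b, which stood highest in KO-F1, differed by -0.54 ± 0.45 between KO-F2 and Ctrl-F1, and the libraries overlapped. Cstl1, Spink2 and Cst8 differed by 0.46 ± 0.36, 0.85 ± 0.44 and 0.66 ± 0.31, with both KO-F2 libraries above Ctrl-F1 for each.

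The direct comparison of KO-F2 with KO-F1 spermatozoa tests the difference between these groups, in which generation, strain label, run label and way of conception change together. edgeR called 312 of 13517 genes (2.31%), and 1 of the 26 members tested, Wfdc17. At an unadjusted p under 0.05 there were 21 of the 26 members, against 36.8% of all genes. DESeq2 called 11 of the 28 it tested, against 13.6% of the genes it tested: Cst8, Cstl1, Spink2 and Wfdc17 higher in KO-F2, and Spink8, Wfdc10, Wfdc13, Wfdc15b, Wfdc6b, Wfdc8 and Wfdc9 lower. Both KO-F2 libraries were above both KO-F1 libraries for 10 members, against 37.2% of all genes, and below them for 13, against 28.7%. Among the 10, Cst12, Wfdc1 and Wfdc15a passed the filter only through their KO-F2 counts, so their direction was largely fixed in advance. Cst12 and Wfdc15a also count among the 21. The median log2 fold change of the members was -0.82, where that of all genes was 0.13.

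Both KO-F2 libraries were below both KO-F1 libraries for Spink8, Wfdc15b, Wfdc10 and Wfdc6b, and above them for Spink2, Cstl1 and Cst8. Spink8 differed by -2.83 ± 0.61 on the log2 scale (adjusted p = 0.0229), Wfdc15b by -2.14 ± 0.59 (adjusted p = 0.0428), Wfdc10 by -1.95 ± 0.49 (adjusted p = 0.033) and Wfdc6b by -1.86 ± 0.41 (adjusted p = 0.0244), all by edgeR. In the other direction Spink2 differed by 2.53 ± 0.40 (adjusted p = 0.0111), Cstl1 by 2.37 ± 0.44 (adjusted p = 0.015) and Cst8 by 2.22 ± 0.37 (adjusted p = 0.0117), also by edgeR. None of these 7 reached the threshold of 0.01, and all 7 were called by DESeq2. Cst12, a cystatin of the same cluster, had 0 and 0 counts in KO-F1 and 34 and 67 in KO-F2, at least 5.69-fold higher when 3 counts are taken as the limit in each KO-F1 library.

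These counts depended on the settings. Scaling to the late spermatogenesis list shifted the median of all genes by -2.01 between KO-F2 and KO-F1 and raised the calls to 14, of which 13 were lower in KO-F2 and Wfdc17 was higher, while Cst11, Cst13, Cst3, Spink14 and Wfdc3 turned sign. Scaling to library totals shifted it by -0.42, turned the sign of Cst3 only and left 0 members called. KO-F2 libraries were also the 2 deepest. With all counts thinned to the smallest library 4 members were called, Cst8, Cstl1, Spink2 and Wfdc17.

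**Figure D3:**
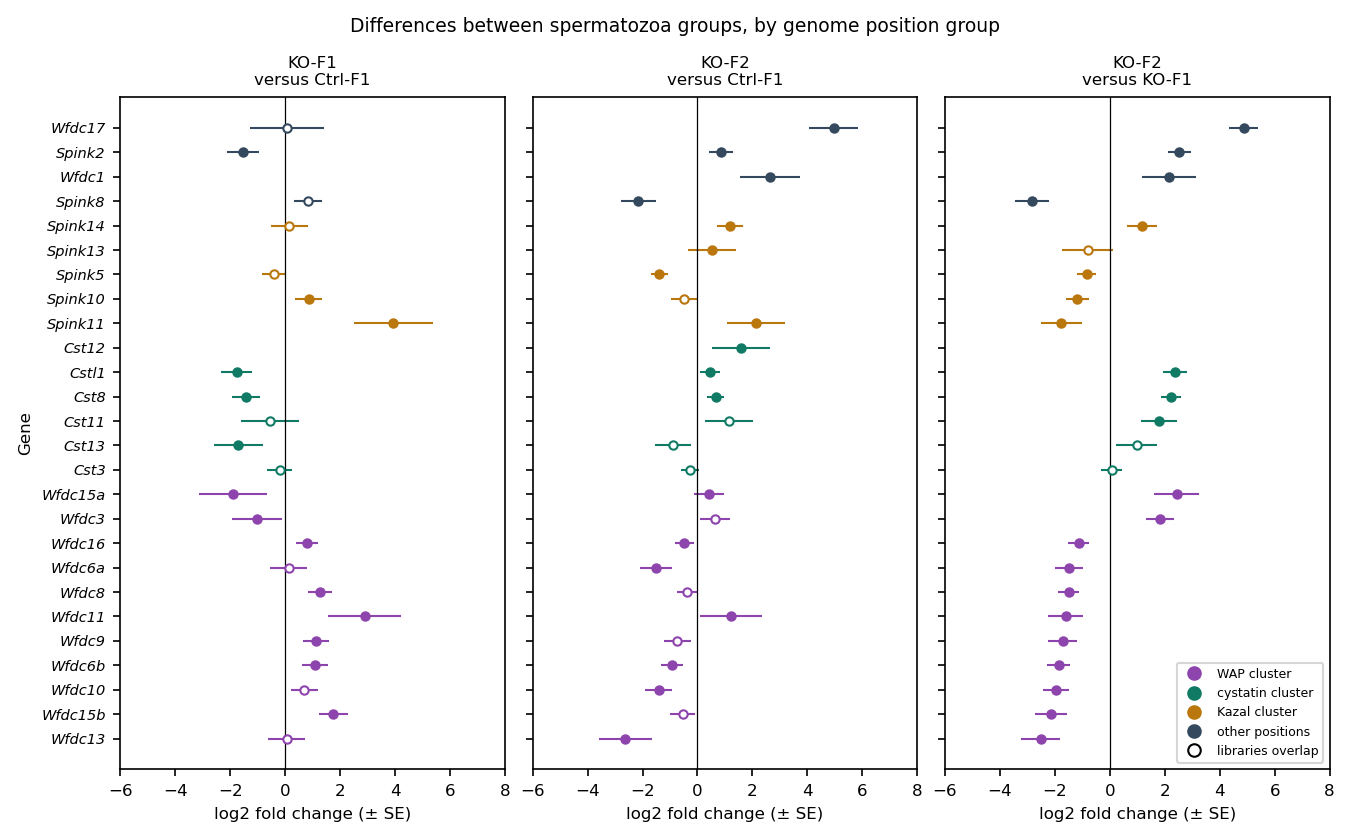
log2 fold changes with their standard errors from edgeR for the members tested, in 3 sperm comparisons, 1 row per gene; colours mark the position group and open points mark genes whose libraries overlap between the groups. Between KO-F2 and KO-F1 the points of the WAP cluster lie left of 0 for 9 of 11 genes and those of the cystatin cluster right of 0; Cst12, with 0 counts in KO-F1, is not drawn in that panel.

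Wfdc17, which encodes a small WAP protein known from activated macrophages, was the single member called by edgeR. It had 3 and 12 counts in Ctrl-F1, against 19 and 14 in KO-F1, and 1034 and 1753 in KO-F2 spermatozoa, which are 1.30 and 10.1, 5.69 and 6.00, and 91.9 and 214 CPM. Both KO-F2 libraries were above all 4 F1 libraries. It rose by 4.87 ± 0.52 on the log2 scale between KO-F1 and KO-F2 (adjusted p = 0.00911 by edgeR), and its difference between KO-F2 and Ctrl-F1 was 4.96 ± 0.90 (adjusted p = 0.149 by edgeR and 4.9e-07 by DESeq2). The control livers held 143 and 278 counts of it and the KO-F1 livers 118 and 98. The call between KO-F2 and KO-F1 was lost with library totals (4.46, adjusted p = 0.0147) and with all 3 sperm groups in 1 edgeR model (4.70, adjusted p = 0.0105).

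The summed leukocyte markers other than Cd52 moved with Wfdc17, though not every marker did. With Cd52, the leukocyte list summed to 3561 to 7239 CPM of the library total in Ctrl-F1 and 12983 to 31349 in KO-F1, whereas KO-F2 libraries had 7764 and 7784, so KO-F1 was the highest group. The leukocyte list without Cd52, which epididymal principal cells also express, has 18 of its 19 genes in the files; 15 to 17 of them were above 3 counts in each F1 sperm library and all 18 in the KO-F2 libraries. Their sum was 520.4 to 1174 CPM of the library total in Ctrl-F1, then 645 to 849 in KO-F1 and 4734 to 6373 in KO-F2 spermatozoa. Ptprc, the pan-leukocyte phosphatase, had 0 and 15, 3 and 2, and 289 and 175 counts in the 3 groups. Ctss, the leukocyte protease cathepsin S that some cystatins inhibit, had 13 and 31, 16 and 49, and 666 and 832. Csf1r, of the same list, had 35 and 86, 56 and 37, and 354 and 542 counts. Cd68 had 8 and 31, 36 and 15, and 192 and 298. Relative to library totals, Csf1r and Cd68 overlapped between Ctrl-F1 and KO-F2. Cst7, which encodes the leukocyte cystatin F, had 0 counts in all F1 sperm libraries and 22 and 15 in KO-F2. The KO-F2 counts are 1.95 and 1.83 TMM-normalized CPM. A count of 0 allows 1.08 to 2.00 CPM of the library total in the shallower F1 sperm libraries, so their depth limits this comparison. The part of leukocyte RNA in the value of Wfdc17 was not tested.

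The position groups differed in the direction of their values. Between KO-F1 and Ctrl-F1 spermatozoa the log2 fold change was above 0 for 9 of the 11 genes tested of the WAP cluster, with a median of 0.81. Among these 9 was Wfdc11, which passed the filter only through KO-F1. All 5 tested of the cystatin cluster had a log2 fold change below 0, with a median of -1.42, and scaling to the late spermatogenesis list left 1 of these 5 below 0. Between KO-F2 and Ctrl-F1 the log2 fold change was below 0 for 8 of 11 WAP cluster genes, with a median of -0.54. It was above 0 for 4 of 6 cystatin cluster genes, with a median of 0.56. Among these 4 was Cst12, which passed the filter only through KO-F2. Between KO-F2 and KO-F1 the log2 fold change was below 0 for 9 of 11 WAP cluster genes, with a median of -1.60. For the cystatin cluster it was above 0 for all 6 genes, with a median of 2.01, the same with Cst12 at its lower bound. Cst12 had 0 counts in both KO-F1 libraries and passed the filter only through KO-F2, so its sign was fixed in advance. With the late spermatogenesis scaling 3 of these 6 were above 0. The genes that went against the rest of the WAP cluster were Wfdc15a and Wfdc3 in all 3 comparisons, and also Wfdc11 between KO-F2 and Ctrl-F1. Wfdc11 passed the filter there only through KO-F2. Where KO-F1 was compared, Wfdc15a passed only through the counts of the other group. Neighbouring genes are not replicates of each other, and these counts carry no test.

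The make-up of the inhibitor counts differed between the groups as well. In Ctrl-F1 spermatozoa the cystatin share of the member counts was 9.79% in library 1 (95% Wilson interval 9.36% to 10.2%) and 11.7% in library 2 (10.9% to 12.6%). In KO-F1 they took 2.48% (2.35% to 2.63%) and 6.75% (6.40% to 7.11%), and in KO-F2 16.6% (16.3% to 17.0%) and 25.5% (24.9% to 26.1%). The 3 groups did not overlap in this share. Spink8, Wfdc10 and Wfdc15b together took 72.2% and 65.8% in Ctrl-F1, against 80.9% and 73.9% in KO-F1 and 54.8% and 38.6% in KO-F2. In liver cystatins, nearly all of them Cst3, took 82.0% to 89.4%.

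**Figure D4:**
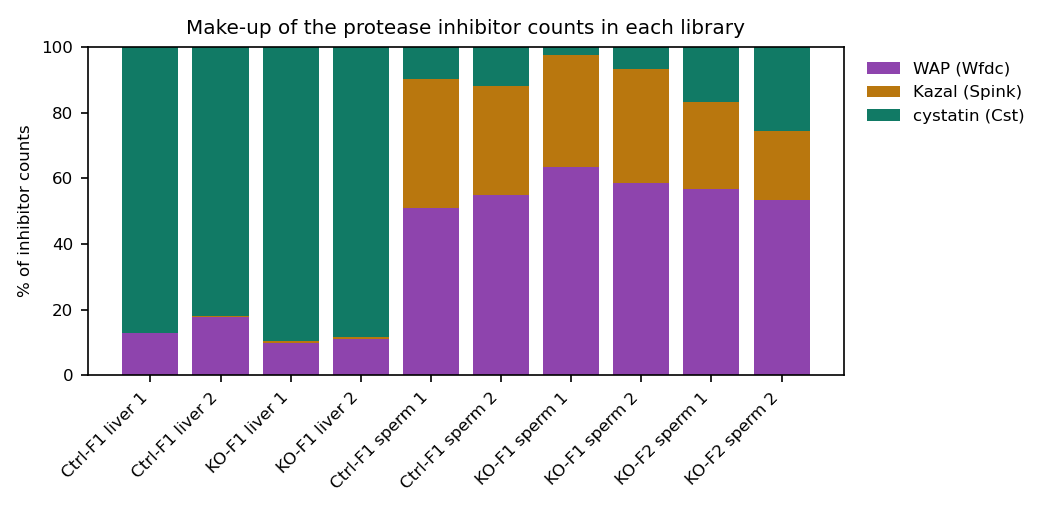
Stacked bars give the percentage of all counts of the 39 inhibitor genes that fell on WAP, Kazal and cystatin genes in each of the 10 libraries. Liver counts are mostly cystatin, whereas sperm counts are mostly WAP and Kazal, with the cystatin share lowest in KO-F1 and highest in KO-F2.

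The remaining tested members had low counts. Wfdc13 had 43 and 98 counts in Ctrl-F1, then 192 and 110 in KO-F1, and 146 and 22 in KO-F2, and it differed by -2.52 ± 0.71 on the log2 scale between KO-F2 and KO-F1 (adjusted p = 0.0455 by edgeR). Spink14, a Kazal gene, had 68 and 25, 141 and 37, and 862 and 318 counts. Wfdc3, Cst11, Wfdc6a, Cst13, Wfdc15a, Wfdc11, Spink11, Wfdc1 and Spink13 had at most 39.5 TMM-normalized CPM in every sperm library. Those that edgeR tested in no sperm comparison were Cst6, Cst7, Cst9, Cst10, Spink3, Spink4, Spink6, Spink7, Spink12, Wfdc2, Wfdc5, Wfdc12 and Wfdc18, each with at most 22 counts in every sperm library.

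KO-F1 was compared with Ctrl-F1 liver to ask whether a somatic tissue was altered. Only 4 members were tested, and of the 11505 genes tested 0 (0%) were called by edgeR and of the 4 members 0. At an unadjusted p under 0.05 there were 0 of the 4, against 9.41% of all genes, and DESeq2 called 0 of the 2 members it tested, against 0.274% of all. Both KO-F1 libraries were above both Ctrl-F1 libraries for 1 member, Cst3, against 20.2% of all genes, and below them for 1, Wfdc17, against 21.4%. Cst3 had 1644 and 1777 counts in the control livers and 1793 and 1481 in the KO-F1 livers, a log2 fold change of 0.26 ± 0.14 (adjusted p = 0.597). Wfdc17 differed by -0.63 ± 0.30 (adjusted p = 0.559).

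Wfdc1 had 45 and 62 counts in the control livers and 38 and 35 in the KO-F1 livers, and Wfdc2 had 47 and 44 and 39 and 51. Spink5, the fifth by CPM not divided by length, had 1 and 2 and 3 and 6 counts. The libraries overlapped for Wfdc1 and Wfdc2 after normalization, and the median log2 fold change of the 4 was 0.02 against -0.01 for all genes.

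Genes of the same pathway outside the rule were read from lists. Of 35 related inhibitors in the files, among them Kunitz inhibitors and serpins, 13 were tested between KO-F1 and Ctrl-F1 spermatozoa, 14 between KO-F2 and Ctrl-F1 and 15 between KO-F2 and KO-F1, and 0 were called in either direction. Spint2, a Kunitz inhibitor of membrane serine proteases, had 547 and 385 CPM in Ctrl-F1, against 464 and 527 in KO-F1, and 184 and 101 in KO-F2. Serpine2, protease nexin-1, had 795 and 363, 269 and 380.4, and 116 and 119 CPM. KO-F2 was the lowest group for both.

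Serping1, the C1 inhibitor, had 98.0 and 332, 138 and 242, and 42.8 and 122 CPM, and its groups overlapped. Slpi, a WAP protein of mucosal fluids and leukocytes whose symbol the rule does not match, had 12.1 and 0.844 CPM in Ctrl-F1, then 0 and 27.9 in KO-F1, and 161 and 650 in KO-F2, with a log2 difference of 5.06 ± 1.43 between KO-F2 and KO-F1 (adjusted p = 0.0464 by edgeR). It was thus high in the same libraries as Wfdc17. Slpi passed the filter of that comparison only through its KO-F2 counts, so its direction was largely fixed in advance. In liver 19 of the related inhibitors were tested and 0 were called.

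Of the 41 serine proteases in the files, which are the kind of enzyme that Kazal and WAP proteins inhibit, 19 were tested between KO-F1 and Ctrl-F1 spermatozoa with 0 called and a median log2 fold change of -1.22, and 27 between KO-F2 and Ctrl-F1 with 0 called and a median of 0.40. Between KO-F2 and KO-F1 the median was 2.62, and 4 of 27 were called, all higher in KO-F2, where edgeR called 2.31% of all genes: Cma1, Mcpt4, Prss39 and Tpsb2. Cma1, Mcpt4 and Tpsb2 had 9 and 1, 1 and 0, and 1 and 1 counts in KO-F1 and passed the filter only with their KO-F2 counts. Their direction was thus fixed in advance, and the 4 calls are not read against that share. The median of 2.62 includes these genes and is not read as a result either. Prss39, a protease of the acrosome, had 410.0 and 324 CPM in Ctrl-F1, against 100.01 and 96.1 in KO-F1, and 546 and 519 in KO-F2, and it was higher by 2.62 ± 0.32 on the log2 scale in KO-F2 than in KO-F1 (adjusted p = 0.00911 by edgeR). Cma1, Mcpt4 and Tpsb2 are proteases of mast cells, and Tpsb2 had 2.17 and 5.06, 0.299 and 0.429, and 198 and 91.5 CPM in the 3 groups.

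Prss8 and St14, membrane proteases of epithelia, had 16.1 to 69.1 and 12.9 to 60.9 CPM and were lowest in KO-F2. The late spermatogenesis list moved with the acrosomal protease, and the leukocyte list without Cd52 with the mast cell proteases, as with the inhibitors above. The part of these lists was not tested. Of the 14 cysteine proteases, 11 were tested between KO-F1 and Ctrl-F1 spermatozoa and 12 in each of the other comparisons, liver included, and 0 were called. Ctsb and Ctsc, lysosomal cathepsins, overlapped between all groups, and Ctsl had 148 and 130 CPM in Ctrl-F1, then 43.1 and 171 in KO-F1, and 43.1 and 95.9 in KO-F2. Ctsz had 26.9 and 26.2 CPM in Ctrl-F1, against 5.09 and 15.9 in KO-F1, and 67.8 and 87.5 in KO-F2, with a log2 difference of 3.09 ± 0.56 between KO-F2 and KO-F1 (adjusted p = 0.0142 by edgeR).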

How the data were processed

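RNA-seq counts of 4 liver and 6 sperm libraries were analysed. The deposited values are raw read counts per gene, made by the authors from single-end reads aligned to mm10 with HISAT2 2.1.0 (per the submitters' processing notes) and assigned to genes with featureCounts. The annotation and the strand setting of the counting are not given in the sources used here. In each file 4 lines of 2 repeated symbols were left out, which left 23416 genes. Groups came from the sample labels, and since nothing in the labels ties libraries to separate pools, p-values measure the spread between these libraries only.

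Counts were tested with edgeR 4.0.16 (R 4.3.3, limma 3.58.1) by the quasi-likelihood F test, with TMM normalization and filterByExpr (minimum count 10, minimum total 15), in the groups compared only. Adjusted p-values are Benjamini-Hochberg values over all genes tested, and calls needed an adjusted p under 0.01 together with a fold of 2 or more. DESeq2 1.42.0, other scalings, filters, thinning, a replicate block and leaving out each library were alternatives. edgeR and DESeq2 at these settings were tested on simulated counts for each comparison. Standard errors are those of the log2 fold change. Levels per kilobase used RefSeq exon lengths (GRCm38.p6), which depend on the annotated isoforms.

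The members and all gene lists were chosen with earlier results of these data known. Values in every library were given for the 12 members highest in spermatozoa, for members called or on the study's lists of changed genes, for the 5 highest in liver, and for the 4 highest genes of each list outside the rule. Others given in full were chosen after their values were seen. Depth was 1503733 to 11462105 counts in sperm libraries and 11339729 to 14278900 in liver libraries. ChIP-seq and embryo data were not analysed here.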

Additional observations from a re-analysis of the deposited data

Results flagged for a closer look

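Wfdc17 differed between KO-F2 and KO-F1 spermatozoa in the test of the difference itself, with a log2 fold change of 4.87 (adjusted p = 0.00911 by edgeR) and with both KO-F2 libraries above both KO-F1 libraries. Generation, strain label, run label and way of conception change together here and cannot be told apart. The summed leukocyte markers other than Cd52 were high in the same libraries, and their part in the difference of Wfdc17 was not tested.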

How the results depend on the processing

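With 2 libraries a group and sperm depths that differed several-fold, the number of members called depended on the settings, and the cause was not tested. DESeq2 called 1 member between KO-F1 and Ctrl-F1 spermatozoa, 2 between KO-F2 and Ctrl-F1 and 11 between KO-F2 and KO-F1, where edgeR called 0, 0 and 1. Between KO-F1 and Ctrl-F1, scaling to the late spermatogenesis list called 4 members and moved their median log2 fold change from 0.13 to 1.85. Leaving out each library gave 0 calls there, and 0 to 1 between KO-F2 and Ctrl-F1, where Wfdc17 was called without Ctrl-F1 library 2 and without either KO-F2 library. Between KO-F2 and KO-F1 the calls were 0 with library totals, 14 with the late spermatogenesis scaling, 13 with no filter, 10 with at least 10 counts in every library, 0 with all 3 sperm groups in 1 model, 4 with thinned counts and 12 at an adjusted p under 0.05. Without 1 library there were 2 to 12, namely 5 and 12 without KO-F1 library 1 or 2 and 3 and 2 without KO-F2 library 1 or 2, where the lone library of a group is assumed to vary like those of the other group, so these counts do not show stability.

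The median log2 fold change between KO-F2 and Ctrl-F1 was 0.07, and it was -0.063 with the late spermatogenesis scaling, 0.63 with no filter (36 members in place of 26), -0.38 with at least 10 counts in every library (20 members), -0.40 with all 3 groups in 1 model (23), -0.49 with thinned counts (21) and -0.65 to 0.28 without 1 library. For KO-F2 against KO-F1 it was -0.82, and -0.030 with DESeq2 and 1.12 with no filter, each over 36 members in place of 26, -2.82 with the late spermatogenesis scaling and -1.33 with all 3 groups in 1 model (23 members). In liver it was 0.02, and 0.37 with DESeq2 and 0.32 with no filter, each over 15 members in place of 4, -0.046 with library totals and -0.11 to 0.12 without 1 library.

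Between KO-F1 and Ctrl-F1, Cst3 was at 0.20 with library totals, 1.57 with the late spermatogenesis scaling, and between -0.65 and 0.16 without 1 library, above 0 without Ctrl-F1 library 1 (0.11) or KO-F1 library 1 (0.16). Under the late spermatogenesis scaling Spink2 was at 0.17 and Spink5 at 1.35, and Wfdc17 was at -0.053 with thinned counts and between -0.79 and 2.098 without 1 library. Between KO-F2 and Ctrl-F1, Cst3 ranged from -0.48 to 0.058 and Spink10 from -0.93 to 0.19 without 1 library. For KO-F2 against KO-F1, Cst3 was at -0.34 with library totals, -1.99 with the late spermatogenesis scaling, -0.11 with all 3 groups in 1 model and between -0.34 and 0.50 without 1 library.

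Replicate numbers are shared between groups, but the animals differ and deviations of same-numbered libraries correlated at -0.009, 0.13, 0.06 and -0.10 (KO-F1 and KO-F2 against Ctrl-F1, KO-F2 against KO-F1, liver), so the libraries were not taken as paired. With the replicate block the members called were 0, 4, 9 and 0, and the genes called 0, 362, 819 and 2. With crossed numbers the genes called were 0, 157, 1950 and 0, in the same order.

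Over all genes, edgeR called 0 between KO-F1 and Ctrl-F1 spermatozoa, against 390 with DESeq2, 486 with the late spermatogenesis scaling, 113 with no filter and 200 with at least 10 counts in every library. Between KO-F2 and Ctrl-F1 it called 0, against 277, 0, 39 and 1, and 35 to 277 without 1 library. For KO-F2 against KO-F1 it called 312, against 2058, 3942, 2552 and 1805, with 0 under library totals, 198 with all 3 groups in 1 model, 692 with thinned counts, 2759 at an adjusted p under 0.05 and 230 to 2898 without 1 library. In liver it called 0, against 20 with DESeq2, 25 with no filter and 4 to 107 without 1 library.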

Other observations

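Eppin, an epididymal inhibitor with WAP and Kunitz domains, has a symbol that the rule does not match. Ctrl-F1 spermatozoa held 70 and 23 counts of it, KO-F1 spermatozoa 103 and 79, and KO-F2 spermatozoa 121 and 77. All 4 liver libraries held 0. These raw counts are not scaled to depth. The KO-F2 libraries held 11462105 and 8384266 counts, and no F1 sperm library held more than 2778171. Relative to library totals, Eppin was lowest in both KO-F2 libraries. The gene listed as 1100001G20Rik, an older symbol of Wfdc21, also lies outside the rule and was counted 7789 and 6262 times in the control livers, 5682 and 5252 times in KO-F1 livers, and 0 times in every sperm library. Its liver counts were thus above those of Cst3, the highest member there.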
